A study of Homo sapiens with 6 samples.

Results

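Genes for subunits of the PPP family of serine/threonine phosphatases were compared between mimic and control cells of MDA-MB-231, a cell line from a human breast cancer without hormone receptors or amplified HER2. A mimic is a short synthetic duplex that loads like a natural microRNA. The series title names miR-5001-5p, and the labels state the sequence of neither the mimic nor the control oligonucleotide. The design text says that the mimic cells were transfected, and it gives no treatment for the control cells. The mimic libraries are titled minic and the control libraries minic_nc, with 3 libraries in each group, and no treatment time or dose is given. Members were taken by symbol, as rows of the deposited table that carry a single gene symbol made of PPP, a digit from 1 to 6, C or R and a subunit code, with pseudogenes left out. The table of 66381 rows held 61 such genes, of which 33 belong to PP1, 14 to PP2A, 3 to calcineurin, 6 to PP4, 1 to PP5 and 4 to PP6. Of these, 50 reached 1 FPKM (fragments scaled by the row's length and by the library's total count) in at least 3 of the 6 libraries and were tested, among 11260 tested rows in all. The other 11 lay below that filter.

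PPP phosphatases remove phosphate from serine and threonine. A few catalytic subunits do so for a very large number of substrates, and partner proteins choose the substrate: PP1 is held by many small regulators that dock on its surface, PP2A is built as a trimer of catalytic subunit, scaffold and an exchangeable B subunit, and calcineurin is switched on by calcium and calmodulin. In epithelial cancer cells PP1 is known for reversing mitotic phosphorylation and for relaxing myosin, and PP2A for restraining growth signalling.

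Libraries held 31643826 to 32363456 counts. VIM, CD44, AXL, CAV1 and KRT18, which mark this line, averaged 12.1 to 449 FPKM in control and 15.5 to 553 in mimic. The epithelial markers CDH1 and EPCAM averaged at most 0.149 FPKM in both groups, GATA3 averaged 1.56 in control and 1.45 in mimic, and PTPRC, PECAM1 and ALB, which mark other cell types, were at or near 0. MKNK2, the gene of the MNK2 kinase that the title names, was 2.13-fold lower in mimic (log2 -1.09 ± 0.15 SE, edgeR adjusted p = 0.0034). Whether replicates came from separate cultures is not labelled, and p-values therefore reflect the spread among these 6 libraries, which may be technical. In bulk RNA a change in RNA per cell and a change in the share of cells that make it cannot be told apart.

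Of the 50 tested subunit genes 9 were higher and 4 were lower in mimic and 37 did not pass the test (edgeR's quasi-likelihood test, Benjamini-Hochberg adjusted p under 0.05 over all 11260 rows). Fold changes are fitted after TMM scaling and therefore differ from the ratio of the mean FPKM. The members called were 26% of those tested, against a background of 22.3% of all tested rows, with 18% higher against 13.6% and 8% lower against 8.63%. The median log2 fold change, mimic minus control, was -0.014 over the members and -0.014 over all tested rows. The median size of the change, whatever its sign, was 0.188 and 0.19. The family as a whole therefore changed about as often and as much as other genes, and what follows describes which subunits moved. Scaling libraries to their total counts in place of TMM turned the split of calls, from 9 higher and 4 lower members to 7 higher and 8 lower, against 10.1% higher and 15.8% lower among all rows.

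**Figure D1:**
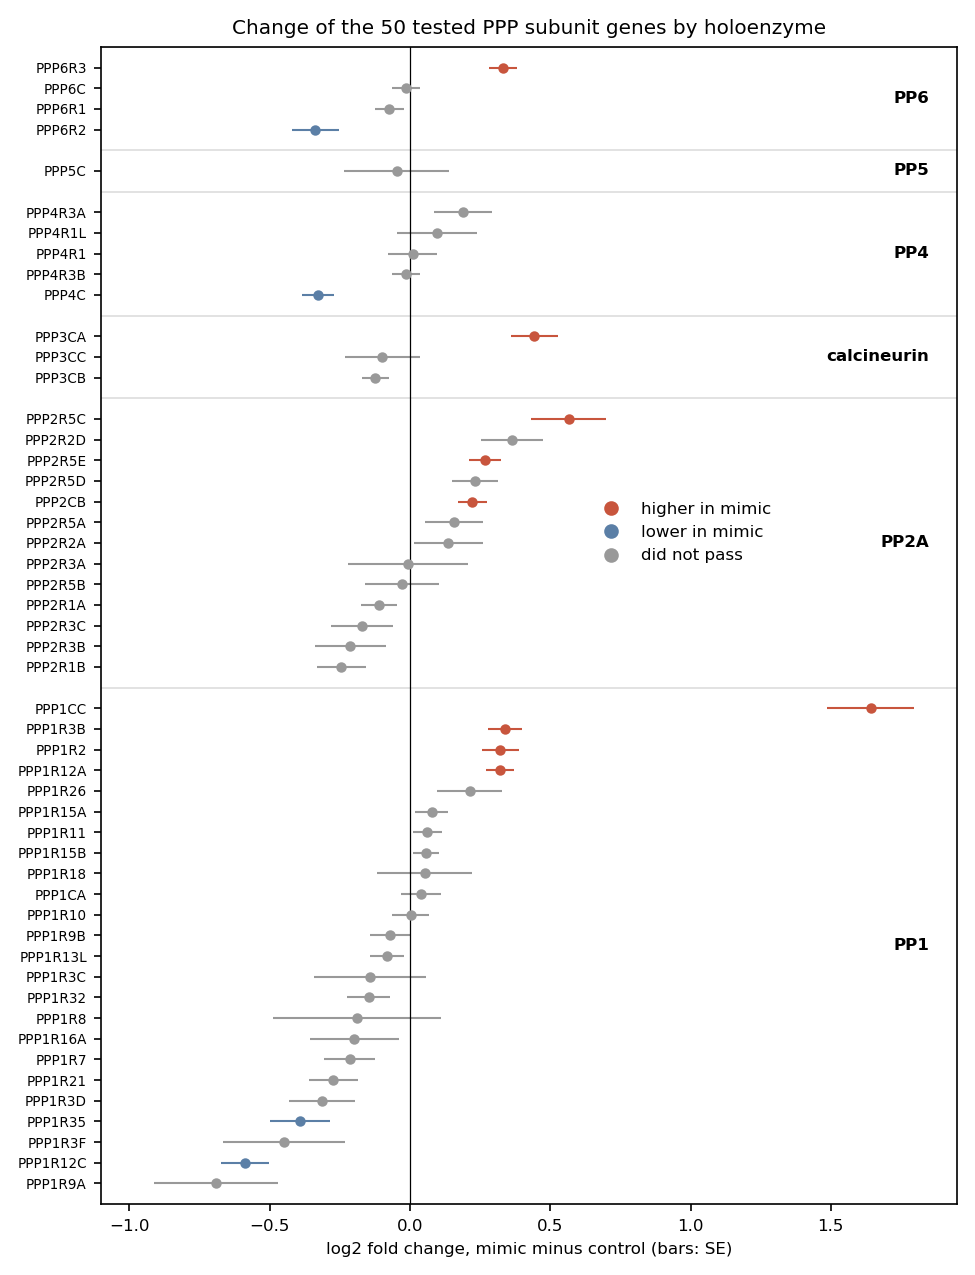
Log2 fold change, mimic minus control, of the 50 tested subunit genes (points, with bars of 1 standard error), grouped by holoenzyme and sorted within each; red genes were higher, blue genes lower and grey genes did not pass. PPP1CC at 1.64 stands apart from the other members, which lie between -0.69 and 0.57.

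PPP1CC, the gene of the gamma catalytic subunit of PP1, rose 3.12-fold, the largest rise among the members. It stood at 7.07, 5.46 and 5.79 FPKM in control replicates 1 to 3 and at 16.2, 22.0 and 16.02 in mimic replicates 1 to 3. Every mimic library lay above every control library, and mimic replicate 2 was the highest. The mean was 6.11 ± 0.846 FPKM in control and 18.1 ± 3.41 in mimic (SD, n = 3 each; log2 1.64 ± 0.15 SE, edgeR adjusted p = 0.000701). Counts were 1720, 1321 and 1378 against 3900, 5275 and 3878, and by fold change the gene ranked 24 from the top among the 11260 rows. It was counted as an assembled locus on chr12:110719680-110742939 (minus strand, GRCh38). PPP1CA, the alpha catalytic subunit and the most highly expressed member, stood at 65.5, 62.9 and 71.4 FPKM in control and 61.9, 70.5 and 62.3 in mimic. Its groups overlapped (log2 0.04 ± 0.07, adjusted p = 0.729), and its sign turned with libraries scaled to their totals. PPP1CC made up 9.74%, 7.99% and 7.50% of the summed PPP1CA and PPP1CC level per length in control, and 20.7%, 23.8% and 20.5% in mimic. This share does not depend on the scaling of libraries. The beta subunit gene was counted in a row merged with a neighbour, PPP1CB/SPDYA, which averaged 24.6 ± 0.721 FPKM in control and 26.9 ± 0.77 in mimic (log2 0.20 ± 0.04, adjusted p = 0.0187).

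**Figure D2:**
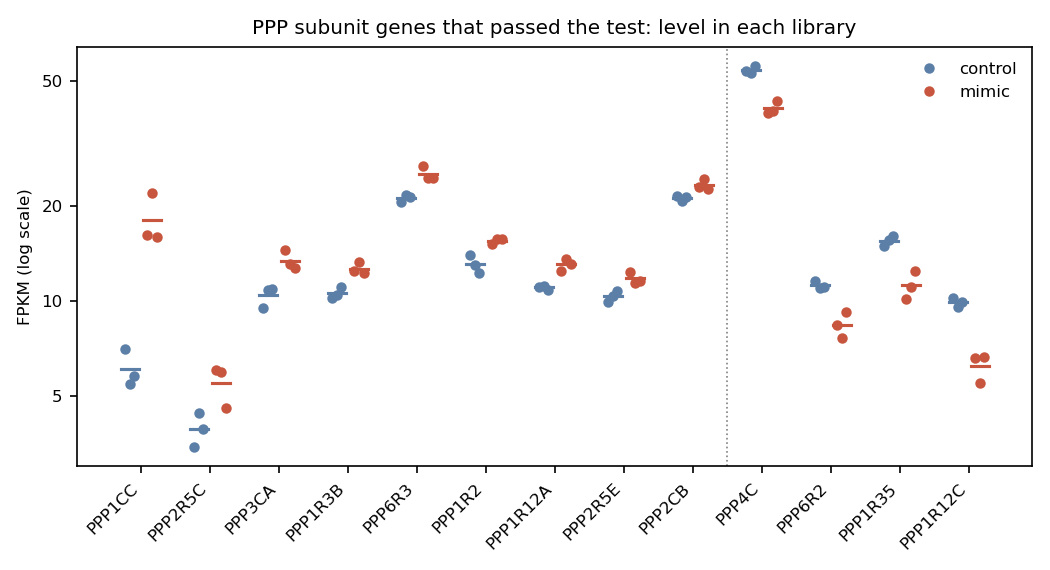
FPKM (log axis) in each library of the 13 subunit genes that passed the test, with points for the 3 control and 3 mimic libraries and lines at the group means; genes left of the dotted line were higher in mimic and genes right of it lower. PPP1CC moves from a control mean of 6.11 to a mimic mean of 18.1, and PPP4C from 54.0 to 40.8.

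The 3′ UTR of PPP1CC carries 3 matches to a pair of heptamers, AGTACAA and GTACAAA, that an earlier scan of 3′ UTRs picked because genes with them were higher in this comparison. The scan used these same libraries and these same genes, so the matches below describe the members and are no separate support for the heptamers. Of 49 tested members with an annotated 3′ UTR (GENCODE 29, RNA strand, any overlap of the heptamers allowed), 6 held either heptamer, or 12.2%, against 17.2% of 9061 tested genes. The 6 are shown with 11 bases on each side where the UTR allows and the heptamer in capitals, because 4 of them are among the 9 members that were higher and none is among the 4 that were lower:
PPP1CC, chr12:110720739-110720767: ttttttaattcAGTACAAcccataatcat
PPP1CC, chr12:110720556-110720584: tgtcttgttatGTACAAActagtttttat
PPP1CC, chr12:110720360-110720388: acacacccctaAGTACAAggtggtatggt
PPP2R5C, chr14:101927682-101927710: cttcatattttGTACAAAatgtcctatgt
PPP3CA, chr4:101025381-101025409: aacaaaatgatGTACAAActaaggactat
PPP6R3, chr11:68613531-68613559: tttttcaccttGTACAAAattatgaattc
PPP4R3B, chr2:55549109-55549137: aaccgcctaccAGTACAAtcttttgtgga
PPP2R3B, chrX:333963-333986: tttgtgtaaacGTACAAAaccgtt
All coordinates are on GRCh38, and all but PPP2R5C and PPP6R3 lie on the minus strand. The median log2 fold change was 0.388 over these 6 genes and -0.047 over the other 43, against 0.197 and -0.037 over all tested genes with and without a match. Among all 1556 tested genes with a match 37.3% were higher and 2.57% lower, and among the 7505 without one 10.8% and 10.6%. PPP1CC, PPP2R5C, PPP3CA and PPP6R3 rose, while PPP4R3B (log2 -0.01 ± 0.05) and PPP2R3B (-0.21 ± 0.13) did not pass. The 3′ UTRs of the 6 had a median length of 2336 bases and those of the 43 one of 1027, and the part of length in the difference was not tested.

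The heptamers pair with bases 2 to 8 of 0 of the 2545 mature human microRNAs of the RefSeq table. The microRNA of the series title has another seed, printed here in capitals from the same table:
hsa-miR-5001-5p: aGGGCUGGacucagcggcggagcu
Its match in a transcript is CCAGCCC. Of the 49 members 10 carried it in the 3′ UTR, or 20.4%, against 23.1% of all tested genes. None of these 10 was lower in mimic and 1, PPP2R5E, was higher, against 13% lower and 11.6% higher among all tested genes with the match, so the count is near the background. The PPP2R5E match lies at chr14:63374900-63374928 (minus strand, GRCh38):
PPP2R5E: tcatcacagcgCCAGCCCtgtttttagcc
The median log2 fold change was 0.031 over the 10 and -0.081 over the other 39. Over all tested genes it was -0.045 with the match and 0.005 without.

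**Figure D3:**
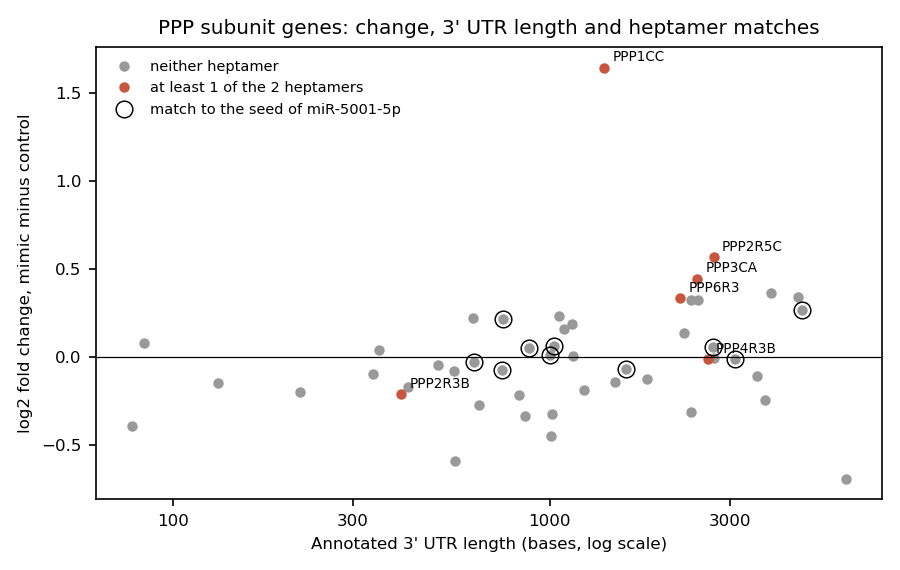
Log2 fold change, mimic minus control, against the length of the annotated 3′ UTR (log axis) for the 49 tested members that have one; red points hold at least 1 of the 2 heptamers and rings mark a match to the seed of miR-5001-5p. PPP1CC at 1.64 has a shorter 3′ UTR, of 1396 bases, than PPP2R5C, PPP3CA and PPP6R3, and the ringed genes lie between -0.07 and 0.27.

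Among the 22 tested regulators of PP1, 3 were higher and 2 lower, near the background of 13.6% and 8.63%. PPP1R12A and PPP1R12C, which target myosin, moved in opposite directions. PPP1R12A encodes MYPT1, the subunit that brings PP1 to myosin light chain. It stood at 11.1, 11.1 and 10.9 FPKM in control and 12.5, 13.6 and 13.1 in mimic, with no overlap (log2 0.32 ± 0.05, edgeR adjusted p = 0.00584). PPP1R12C, its paralog MBS85, stood at 10.2, 9.60 and 9.91 FPKM in control and 6.58, 5.51 and 6.63 in mimic. It fell 1.5-fold, with every mimic library below every control library (log2 -0.59 ± 0.09, adjusted p = 0.00419). The ratio of PPP1R12A to PPP1R12C per length was 1.09, 1.16 and 1.10 in control and 1.897, 2.468 and 1.98 in mimic. The exact permutation p of this ratio, two-sided, was 0.1, and a design of 3 against 3 can reach no lower value. Because both genes already moved apart in opposite directions without overlap, this p was fixed in advance and adds no support to their calls. PPP1R12A is overlapped by an antisense gene, PPP1R12A-AS1, with 39 to 79 counts per library, against at least 4059 for PPP1R12A itself. PPP1R16A, another targeting subunit of this group, had overlapping groups (log2 -0.20 ± 0.16, adjusted p = 0.411), and PPP1R14A and PPP1R14C, inhibitors of the myosin phosphatase, were near 0 in all libraries.

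PPP1R2, which encodes inhibitor-2, a protein that binds PP1 and holds it inactive, stood at 13.97, 13.03 and 12.3 FPKM in control and 15.1, 15.7 and 15.7 in mimic. It rose with no overlap (log2 0.32 ± 0.07, edgeR adjusted p = 0.0149), and the call ended without control replicate 3 (log2 0.28, adjusted p = 0.0525). The genome holds near-identical copies of it, so its reads may be shared, and 1 such copy, PPP1R2B, had under 0.205 FPKM in each library. PPP1R11, which encodes inhibitor-3, did not pass (log2 0.06 ± 0.05, adjusted p = 0.443). PPP1R3B encodes a subunit that brings PP1 to glycogen, first described in liver. It stood at 10.2, 10.5 and 11.1 FPKM in control and 12.5, 13.3 and 12.3 in mimic. It rose 1.27-fold with no overlap (log2 0.34 ± 0.06, adjusted p = 0.00986). The other 3 tested glycogen-targeting genes had log2 fold changes of -0.14 ± 0.20 (PPP1R3C), -0.31 ± 0.12 (PPP1R3D) and -0.45 ± 0.22 (PPP1R3F), and none passed.

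PPP1R35, which encodes a centrosomal protein, stood at 14.9, 15.7 and 16.1 FPKM in control and 10.2, 11.1 and 12.4 in mimic, again with no overlap. It fell 1.31-fold (log2 -0.39 ± 0.11, edgeR adjusted p = 0.0399), but the call remained in only 1 of the 6 fits that left out a library, the one without mimic replicate 3, with adjusted p up to 0.117 in the others. PPP1R15A and PPP1R15B, which encode the subunits that bring PP1 to the translation factor eIF2α, were the second and the fifth most highly expressed members. PPP1R15A averaged 52.4 FPKM in each group (log2 0.08 ± 0.06, adjusted p = 0.385). PPP1R15B averaged 36.3 in control and 35.8 in mimic (log2 0.06 ± 0.05, adjusted p = 0.416). The nuclear subunits PPP1R7, PPP1R8 and PPP1R10 did not pass either, with log2 fold changes of -0.22 ± 0.09, -0.19 ± 0.30 and 0.00 ± 0.07. PPP1R9A, which encodes the actin-binding protein neurabin, had the lowest log2 fold change of all members, -0.69 ± 0.22, and missed the threshold (adjusted p = 0.0665). It passed as lower with libraries scaled to their totals, in DESeq2, with no filter and without control replicate 3, but in no other alternative. Its control libraries spread from 1.68 to 3.18 FPKM and all lay above the mimic libraries, which spread from 1.35 to 1.399. PPP1R9B, which encodes spinophilin, PPP1R13L, PPP1R18, PPP1R21, PPP1R26 and PPP1R32 did not pass.

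In PP2A 3 of 13 tested genes were higher and none lower at the adjusted threshold. That is 23.1% higher against a background of 13.6%, and 0% lower against 8.63%. In either direction the share was 23.1%, against 22.3% of all tested rows. At an unadjusted p under 0.05 edgeR had 5 higher and 1 lower of the 13, against 4098 of all 11260 rows in either direction. DESeq2 called 4 higher and 0 lower, against 1770 higher and 1269 lower of the 11260 rows. PPP2CB, the beta catalytic subunit (chr8:30774457-30814314, minus strand), stood at 21.5, 20.7 and 21.3 FPKM in control and 23.1, 24.5 and 22.7 in mimic. It rose 1.17-fold with no overlap (log2 0.22 ± 0.05, edgeR adjusted p = 0.0239). The alpha catalytic subunit gene is not analysed here. The scaffold genes had log2 fold changes of -0.11 ± 0.06 for PPP2R1A (27.9 to 24.5 FPKM, adjusted p = 0.261) and -0.24 ± 0.09 for PPP2R1B (9.25 to 7.40 FPKM, adjusted p = 0.0871). PPP2R1B passed as lower with libraries scaled to their totals (log2 -0.32), in both limma fits and without mimic replicate 2, but in no other alternative. The ratio of PPP2CB to PPP2R1A per length, which is free of library scaling, was 0.807, 0.757 and 0.719 in control and 0.997, 0.997 and 0.884 in mimic. In FPKM every mimic library already lay above every control library for PPP2CB and below for PPP2R1A. The separation of their ratio was therefore fixed in advance and adds no support to the call of PPP2CB.

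The B subunits of the B56 family held the other 2 PP2A genes that rose. PPP2R5C, B56 gamma, which directs PP2A to p53 and to mitotic substrates, stood at 3.44, 4.42 and 3.92 FPKM in control and 6.03, 5.95 and 4.57 in mimic. It rose 1.48-fold, with mimic replicate 3 only just above control replicate 2 (log2 0.57 ± 0.13, edgeR adjusted p = 0.0253). PPP2R5E, B56 epsilon, stood at 9.95, 10.4 and 10.7 FPKM in control and 12.4, 11.4 and 11.6 in mimic (log2 0.27 ± 0.06, adjusted p = 0.0177). PPP2R5D, the most highly expressed B56 gene at 25.4 FPKM in control and 28.2 in mimic, had a log2 fold change of 0.23 ± 0.08 and did not pass (adjusted p = 0.0873), nor did PPP2R5A (0.16 ± 0.10) or PPP2R5B (-0.03 ± 0.13). In the B55 family PPP2R2A (0.14 ± 0.12) and PPP2R2D (0.36 ± 0.11, adjusted p = 0.0563) did not pass, and in the PPP2R3 family PPP2R3A, PPP2R3B and PPP2R3C lay between -0.21 and -0.01. Each PP2A call was lost in at least 2 of the 6 fits without 1 library: PPP2CB without control replicates 1, 2 and 3 and mimic replicate 2, PPP2R5C without control replicates 1 and 3 and mimic replicates 1 and 2, and PPP2R5E without control replicates 1 and 2, with adjusted p up to 0.0787. The calls of PPP2CB and PPP2R5E also ended with libraries scaled to their totals, which left 1 higher PP2A gene and 1 lower.

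Of the calcineurin catalytic genes PPP3CA rose and the others did not pass. PPP3CA, the alpha subunit (chr4:101023409-101348278, minus strand), stood at 9.49, 10.8 and 10.9 FPKM in control and 14.5, 13.1 and 12.7 in mimic. It rose 1.36-fold with no overlap between groups (log2 0.44 ± 0.08, edgeR adjusted p = 0.0106). PPP3CB, the beta subunit and the more highly expressed, stood at 22.3, 23.0 and 22.5 FPKM in control and 20.2, 19.8 and 19.0 in mimic. The mimic libraries were all lower, yet the gene did not pass (log2 -0.12 ± 0.05, adjusted p = 0.11). PPP3CB passed as lower with libraries scaled to their totals (log2 -0.20), in both limma fits and with a filter of at least 5 FPKM. In no other alternative did it pass. PPP3CC, at 2.81 and 2.49 FPKM, did not pass (log2 -0.10 ± 0.13, adjusted p = 0.635). PPP3CA made up 27.4%, 29.5% and 30.3% of the summed level of these 3 genes per length in control and 38.9%, 36.6% and 37.7% in mimic, while their sum was 35.8 ± 1.10 FPKM in control and 35.6 ± 1.75 in mimic (SD, n = 3 each). The gene of the regulatory B subunit was counted in a merged row, PPP3R1/WDR92/AC017083.3, which rose from 10.98 ± 0.291 to 21.7 ± 0.768 FPKM (log2 1.06 ± 0.05, adjusted p = 5.8e-05), and the share of PPP3R1 in it cannot be told from these counts.

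**Figure D4:**
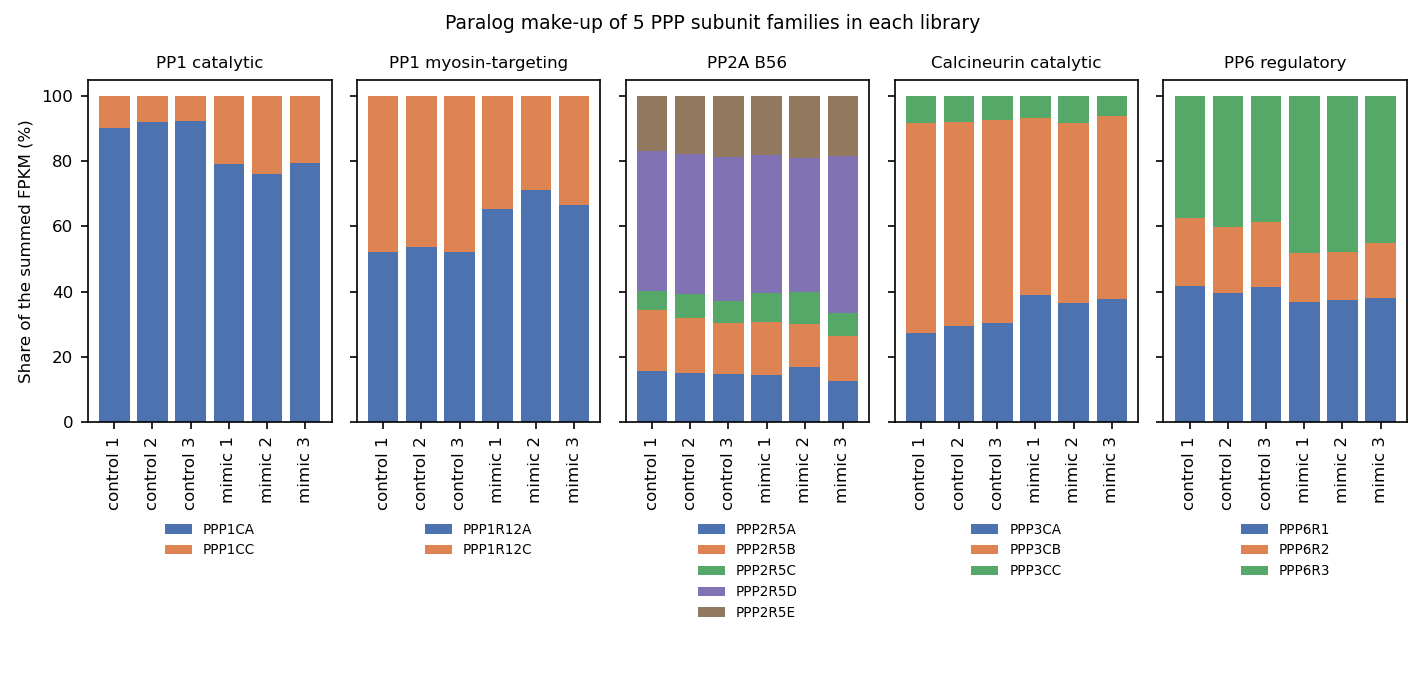
Share of each paralog in its family's summed FPKM (stacked bars, percent) in the 3 control and 3 mimic libraries, for 5 families. The PP1 catalytic bars sum PPP1CA and PPP1CC only, and the PP1 myosin-targeting bars PPP1R12A and PPP1R12C only. PPP1CB and PPP1R12B, which were counted in merged rows, are left out of these sums. PPP1CC, PPP1R12A, PPP3CA and PPP6R3 take a larger share in each mimic library than in any control library, whereas the B56 shares of PPP2R5D and PPP2R5E overlap between groups.

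PPP4C, the catalytic subunit of PP4, which acts in DNA repair and in centrosome maturation, was lower in mimic. It was the third most highly expressed member, at 53.7, 52.8 and 55.6 FPKM in control and 39.4, 39.95 and 43.1 in mimic. The groups were well apart and the fitted fall was 1.255-fold (chr16:30075978-30085377, plus strand; log2 -0.33 ± 0.06, edgeR adjusted p = 0.00799). Its regulatory genes PPP4R1, PPP4R1L, PPP4R3A and PPP4R3B had log2 fold changes from -0.01 to 0.19 and none passed. PPP4R2 was counted with a neighbour as PPP4R2/GXYLT2, which rose slightly (log2 0.24 ± 0.06, adjusted p = 0.0216). PPP5C, the PP5 gene, spread from 8.08 to 10.9 FPKM in control and from 7.20 to 10.7 in mimic, with replicate 3 the highest in both groups, and did not pass (log2 -0.05 ± 0.19, adjusted p = 0.883).

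In PP6 the catalytic gene did not pass, and 2 regulatory genes moved in opposite directions. PPP6C stood at 17.7, 17.3 and 17.2 FPKM in control and 16.5, 16.3 and 16.2 in mimic (log2 -0.01 ± 0.05, edgeR adjusted p = 0.873). Its mimic values were all lower on this scale, which divides by the total count, and level with control after TMM. PPP6R3, which encodes a subunit that directs PP6, stood at 20.6, 21.7 and 21.3 FPKM in control and 26.7, 24.6 and 24.6 in mimic. It rose 1.26-fold with no overlap (log2 0.33 ± 0.05, adjusted p = 0.0049). PPP6R2 stood at 11.6, 10.998 and 11.1 FPKM in control and 8.38, 7.63 and 9.21 in mimic. It fell 1.26-fold with no overlap (log2 -0.34 ± 0.08, adjusted p = 0.0294). Its call remained in only 1 of the 6 fits without 1 library, the one without mimic replicate 3, with adjusted p up to 0.0902 in the others. PPP6R2 overlaps SBF1 on the opposite strand, which had 6266 to 6719 counts, and whether counting used strand is not given in the sources used here. PPP6R1 did not pass (log2 -0.07 ± 0.05, adjusted p = 0.342). The ratio of PPP6R3 to PPP6R2 per length was 1.78, 1.98 and 1.93 in control and 3.19, 3.23 and 2.67 in mimic. Because both genes had already moved in opposite directions without overlap, the separation of this ratio was fixed in advance. It adds no support to their calls.

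The 11 members below the filter were PPP1R13B, PPP1R1A, PPP1R1C, PPP1R2B, PPP1R3G, PPP1R14A, PPP1R14C, PPP1R16B, PPP1R36, PPP2R2C and PPP4R4. PPP1R13B, which encodes the p53-binding protein ASPP1, came closest, with 0.859, 1.02 and 1.253 FPKM in control and 0.908, 0.872 and 0.636 in mimic. The groups overlapped, and 5 of the 11 had fewer than 10 counts in every library. Besides the 3 merged rows above, 4 more name a subunit gene. AP001453.4/PPP1R14B (log2 0.02 ± 0.09), MARK4/GEMIN7/PPP1R37 (-0.04 ± 0.09) and PPP1R12B/AC099336.1 (-0.47 ± 0.46) did not pass, and HOMEZ/PPP1R3E was below the filter.

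Other genes of these pathways were counted by list, each read against the background of 22.3% of rows called. Of 30 tested PP1 docking partners without a PPP1R symbol 11 were higher and 3 lower, or 46.7%. WBP11, a splicing factor that binds PP1, went up from 15.0 to 25.99 FPKM (log2 0.87 ± 0.06, edgeR adjusted p = 0.000158). NEK2, a centrosomal kinase opposed by PP1, rose from 4.48 to 15.5 FPKM (log2 1.87 ± 0.15, adjusted p = 0.000312). RRP1B, a nucleolar protein that holds PP1, rose from 17.7 to 24.0 FPKM (log2 0.52 ± 0.06, adjusted p = 0.00136). With libraries scaled to their totals the split of 11 higher and 3 lower became 6 and 6. The 3 lower became 1 without control replicate 2 or 3. The 11 higher became 6 without control replicate 1, control replicate 3 or mimic replicate 2, and 7 without control replicate 2 or mimic replicate 1. Of 11 genes of glycogen metabolism 3 were higher and 4 lower, or 63.6%. PYGB, a glycogen phosphorylase, rose from 13.2 to 27.9 FPKM (log2 1.15 ± 0.08, adjusted p = 0.000209), and UGP2, which makes the glucose donor for glycogen, from 10.5 to 17.6 (0.82 ± 0.06, adjusted p = 0.000218). The 3 higher genes passed in each fit without 1 library, while the 4 lower became 2 without control replicate 1 or 3 or mimic replicate 1 or 2.

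Of 16 PP2A inhibitors, methylation and assembly factors 4 were higher and 1 lower, or 31.2%. SET, an inhibitor protein of PP2A, went up from 64.3 to 99.2 FPKM (log2 0.70 ± 0.06, edgeR adjusted p = 0.000501). CIP2A, another inhibitor, rose from 16.4 to 22.1 FPKM (log2 0.51 ± 0.06, adjusted p = 0.00178), and ANP32E, of the same family as the inhibitor ANP32A, from 61.7 to 69.2 (0.24 ± 0.04, adjusted p = 0.00975). Each of these 3 passed in all 6 fits without 1 library, and the 1 lower gene, MASTL, passed in only 1. Of 16 STRIPAK and Integrator partners 3 were higher and 2 lower, or 31.2%, with SLMAP (log2 0.76 ± 0.11) and SIKE1 (0.28 ± 0.06) higher and CCM2 lower (-0.43 ± 0.07). The 3 became 1 without control replicate 3, and the 2 became 1. Of 13 calcineurin regulators 3 were lower, and the list median was -0.229. CABIN1, which encodes an inhibitor of calcineurin, fell from 5.94 to 4.28 FPKM (log2 -0.39 ± 0.06, adjusted p = 0.00621), CHP1, a calcineurin-like calcium-binding protein, from 11.2 to 6.60 (-0.68 ± 0.17) and CRTC1, a calcineurin substrate, from 1.39 to 0.90 (-0.55 ± 0.15). CHP1 lost its call without control replicate 3 and without each mimic replicate, and CRTC1 in 5 of the 6 fits.

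The remaining lists were at or near the background or small. Of 14 PPM phosphatases, which form a separate family, 1 was higher and 3 lower, or 28.6%: PPM1F (log2 -0.31 ± 0.05), PHLPP1, which dephosphorylates AKT (-0.37 ± 0.08), and TAB1, a member without phosphatase activity (-0.27 ± 0.07), fell, of which TAB1 passed in none of the 6 fits without 1 library and PHLPP1 in 3. Of 7 genes of the eIF2α pathway 2 were higher, EIF2S1, which encodes eIF2α (36.3 to 46.0 FPKM, log2 0.42 ± 0.04, edgeR adjusted p = 0.000777), and ATF4, the transcription factor translated when eIF2α is phosphorylated (log2 0.28 ± 0.08), whose call remained in 1 of the 6 fits. Of 11 genes of myosin and its kinases 2 were higher, or 18.2%: ROCK1, a kinase that phosphorylates and inhibits the MYPT1 subunit, rose from 15.9 to 23.8 FPKM (log2 0.66 ± 0.08, adjusted p = 0.00172), and MYH9, a non-muscle myosin heavy chain, had a log2 fold change of 0.16 ± 0.04 and passed in 2 of the 6 fits. Of 3 tested PP4 and PP6 partners 0 passed in edgeR and 0 in DESeq2, and 1 had an unadjusted p under 0.05 in each: ANKRD28, an ankyrin-repeat subunit of PP6 (log2 0.22 ± 0.09). Without control replicate 2, 1 partner passed as lower.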

How the data were processed

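The 6 libraries hold polyadenylated RNA. The submitters' processing notes name cutadapt 1.9, FastQC and the build GRCh38 (hg38). Which aligner, counter and annotation were used, and whether counting used strand, is not given in the sources used here. The deposited table holds raw counts and FPKM per library. The deposited FPKM equal the count divided by a whole row length and the library's total count. The 38792 rows that name no gene (2.46 to 2.7% of counts) stayed out of library sizes and tests, and the 1248 rows naming several genes (10.2 to 11% of counts) were tested but are not members.

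Differences were tested with edgeR 4.0.16 (R 4.3.3; glmQLFit, glmQLFTest, TMM, two-sided) on rows with at least 1 FPKM in at least 3 of 6 libraries, with Benjamini-Hochberg adjustment. Standard errors were derived from the F statistic. The test was checked on simulated data. Replicates were not duplicates of 1 library: their chi-square over genes was at least 26.9 times its degrees of freedom. Alternatives were total-count scaling, DESeq2 1.42.0 and its size factors, limma 3.58.1 on log2(FPKM + pseudocount), other filters, a replicate block and each library left out. The 3′ UTR of each gene is the longest among its basic GENCODE 29 protein-coding transcripts; the microRNA sequence is from RefSeq on GRCh38.p14. Members and lists were chosen with earlier results of these data known. Named are all members that passed, the catalytic and scaffold subunits, and up to 3 members of each list; other names were added after their values were seen. Some genes of the lists are not reported here. A planned scan for docking motifs in proteins was not run. Tables were handled with Python 3.11.15 and pandas 2.3.3, figures with matplotlib 3.10.9.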

Additional observations from a re-analysis of the deposited data

How the results depend on the processing

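PPP1CC, PPP1R12A, PPP1R12C, PPP1R3B, PPP3CA, PPP4C and PPP6R3 kept their direction and their call in all 15 alternatives run; PPP1CC had log2 fold changes of 1.41 to 1.76. Total-count scaling gave 8 lower members, of which 4 in PP1 and 1 in PP2A, 1 higher PP2A gene, 1783 lower among all genes and 16 higher genes in the other lists. Limma on log2(FPKM + 1) and log2(FPKM + 0.1) gave 9 lower members each, 5 of them in PP1 and 1 in PP2A, 0 higher PP2A genes (3 at an unadjusted p under 0.05 in each), 1707 and 1680 lower among all genes, and 15 higher genes in the other lists (27 with edgeR). No filter gave 1 lower gene among calcineurin, PP4, PP5 and PP6, and 9 lower genes in the other lists (16 with edgeR). DESeq2 and its size factors in edgeR moved no count by over 1.5 times.

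Same-numbered libraries did not deviate together (correlations of -0.009, 0.06 and -0.05). Whether they were prepared in pairs is not labelled and cannot be told from these correlations. With a replicate block 2 members were lower, 1 of them in PP1 and 1 among calcineurin, PP4, PP5 and PP6, 1 PP2A gene was higher and 8 genes of the other lists were lower.

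Without 1 library, members called numbered 6 to 10 higher and 2 to 4 lower, PP1 genes 3 to 4 and 1 to 2, PP2A genes 1 to 4 and 0 to 1, the calcineurin, PP4, PP5 and PP6 genes 2 to 2 and 1 to 2, genes of other lists 15 to 19 and 7 to 12, and all genes 1073 to 1368 and 503 to 854. The sign of PPP1CA turned with total-count scaling (log2 -0.039), in limma (-0.037 and -0.038) and without mimic replicate 2 (-0.026, range to 0.092); that of PPP5C turned without control replicate 3, mimic replicate 1 or mimic replicate 2 (-0.261 to 0.092 over the 6 fits), and that of PPP3CC without mimic replicate 3 (-0.228 to 0.023). None of these passed. The causes were not tested. Filtering on FPKM leaves 11 members untested at this depth.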
